A study of Mus musculus with 9 samples.

Results

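Ccer2 encodes coiled-coil glutamate-rich protein 2 and was, by TPM, the most abundant protein-coding transcript in Merkel cell libraries from newborn mouse epidermis. It is 1 of the 49672 rows of the series' gene table, found by its Ensembl identifier ENSMUSG00000096257.2, and 1 of 21811 rows annotated as protein-coding. It was chosen by its measured TPM in Merkel libraries and its difference from basal keratinocytes. Its values in that comparison are therefore a description and carry no test.

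Total RNA was sequenced from epidermal cells of Sox2-GFP reporter mice at postnatal day 0. GFP-positive cells were sorted as Merkel cells (3 libraries), and GFP-negative cells with SCA1 and CD49F on their surface as basal keratinocytes (6 libraries, a first and a second for each of 3 sample numbers). All animals carried the reporter, in both groups. The labels give neither what sets the first basal libraries apart from the second nor the source of a sample number (1 mouse or several), so p-values measure only the spread between these samples, which may be technical.

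Merkel cells are epithelial cells of the epidermis that sense light touch and contact sensory nerve endings. They arise from the keratinocyte lineage under the transcription factor Atoh1, keep simple epithelial keratins such as Krt8, and carry dense-core vesicles with granins and peptides. Genes named Ccer are named for a predicted coiled coil rich in glutamate. No role of Ccer2 in skin is assumed here.

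Values are TPM, a transcript abundance per unit length that sums to the same total in each library. Read depth is unknown, since TPM keeps none. Between 11523 and 12498 protein-coding genes reached 1 TPM in a library. The defining markers of both labelled cell types were present. The 8 transcription factors of the Merkel lineage on the list used here, Atoh1, Pou4f3 and the reporter gene Sox2 among them, summed to 388 to 503 TPM in Merkel libraries and 0.65 to 2.05 TPM in basal libraries. Merkel libraries also held markers of other cells. Of the 8 dermal fibroblast and papilla markers tested, 6 were called higher in them than in basal libraries by limma. Among these the growth factor receptor gene Pdgfra was at 6.38 against 0.0833 TPM, the papilla gene Corin at 9.06 against 0.12 TPM and the collagen gene Col3a1 at 29.9 against 0.965 TPM. Vim and Dcn, the most abundant on the list, were not called. Vim was at 148 against 340 TPM (-0.74, limma adjusted p = 0.0188) and Dcn at 135 against 124 TPM. All 10 fibroblast markers summed to 377 TPM in Merkel libraries on average, against 640 in first and 301 in second basal libraries. Of these sums Vim alone held 148, 565 and 115 TPM. Of 7 melanocyte markers 5 were called higher. Over all genes tested, 6.79% were called higher. The 7 melanocyte markers summed to 186 TPM in Merkel, 25.6 in first and 130 in second basal libraries on average. The 17 basal keratinocyte markers summed to 7140 ± 562 TPM in Merkel libraries (SD, n = 3), against 20333 in first and 16937 in second basal libraries on average. The part of these cells in the levels below was not tested.

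The gene lies on chromosome 7 at chr7:28756174-28758968 of mm10, on the plus strand, with 5 exons and 1 annotated transcript of 1054 bases in GENCODE M21. The coding sequence has 274 codons before the stop, of which 55, or 20.1%, are the glutamate codons GAA and GAG. The median over 21549 mouse genes, taking the longest coding sequence of each, is 6.35%, and 33 genes, Ccer2 included, reach 20.1%. The stretch of 50 codons with most of them, codons 100 to 149 in exon 4, is shown because it is what the gene is named for. It runs from 28757130 to 28757279 and holds 18 glutamate codons, given in capitals. Its longest run is 6 such codons, the longest of the coding sequence.
Ccer2 codons 100 to 149: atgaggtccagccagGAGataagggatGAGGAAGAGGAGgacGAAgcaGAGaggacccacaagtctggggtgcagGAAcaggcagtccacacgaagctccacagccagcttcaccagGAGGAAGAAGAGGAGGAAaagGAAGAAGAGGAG
The first 30 codons, which span exons 1 and 2, are of another composition. They hold 12 leucine codons, in capitals here, where the median gene has 3, and 0.283% of genes have as many.
Ccer2 codons 1 to 30: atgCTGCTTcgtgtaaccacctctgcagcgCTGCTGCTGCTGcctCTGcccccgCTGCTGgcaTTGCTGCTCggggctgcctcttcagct

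The 250 bases before the annotated start, from RefSeq on GRCm38.p6, are shown as the sequence that adjoins the most abundant coding transcript of these cells. Of the 7 motifs searched on both strands, 5 had a match, and the matches are in capitals. The motifs were chosen with the sequence in view.
Ccer2 promoter, chr7:28755924-28756173, plus strand: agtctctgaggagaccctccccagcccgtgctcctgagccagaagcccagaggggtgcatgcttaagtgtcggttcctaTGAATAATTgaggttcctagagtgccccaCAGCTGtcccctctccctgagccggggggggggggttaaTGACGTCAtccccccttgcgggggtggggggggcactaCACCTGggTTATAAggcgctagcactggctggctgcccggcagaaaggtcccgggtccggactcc
The rarest match, and the longest of the 7 strings searched, is TGAATAATT, with its first base 171 bases before the start. It is a core of the motif of POU4 class factors such as Pou4f3. It is found in 0.314% of the 32851 promoters of the same table and length. TGACGTCA, the palindromic cAMP response element, begins 103 bases before the start and is in 1.55% of promoters. The E-box CAGCTG, also a palindrome, is in 13.0%, and the E-box CACCTG in 17.2%. TATAA is in 22.8% and matched here on both strands, in 2 copies that overlap in the letters TTATAA and begin 57 and 56 bases before the start. AACAAT, the core of SOX class motifs (9.42% of promoters), and CCAAT (33.8%) had no match in these letters. A match is a string in this window and not a measured binding site.

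In Merkel libraries Ccer2 was at 18309, 15078 and 19973 TPM for sample numbers 1, 2 and 3. It ranked first among protein-coding genes in each of them. The next gene was the elongation factor Eef1a1 in numbers 1 and 2 and the mitochondrial gene mt-Atp8 in number 3, and Ccer2 stood 2.23-fold, 2.34-fold and 2.33-fold above it. The 10 genes that followed in the Merkel mean are active in cells of many kinds or in keratinocytes. They were Eef1a1 (7653 ± 1052 TPM, SD, n = 3), mt-Atp8, mt-Co1, the suprabasal keratin gene Krt1, the cystatin family gene Stfa3, and the ribosomal protein genes Rps27, Rpl41, Rpl13a, Rps12 and Rplp1. For each of these 10 the range of the Merkel libraries overlapped that of the basal libraries. Reads of Eef1a1 and of ribosomal protein genes can be shared with processed pseudogenes, so their levels are uncertain.

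**Figure D1:**
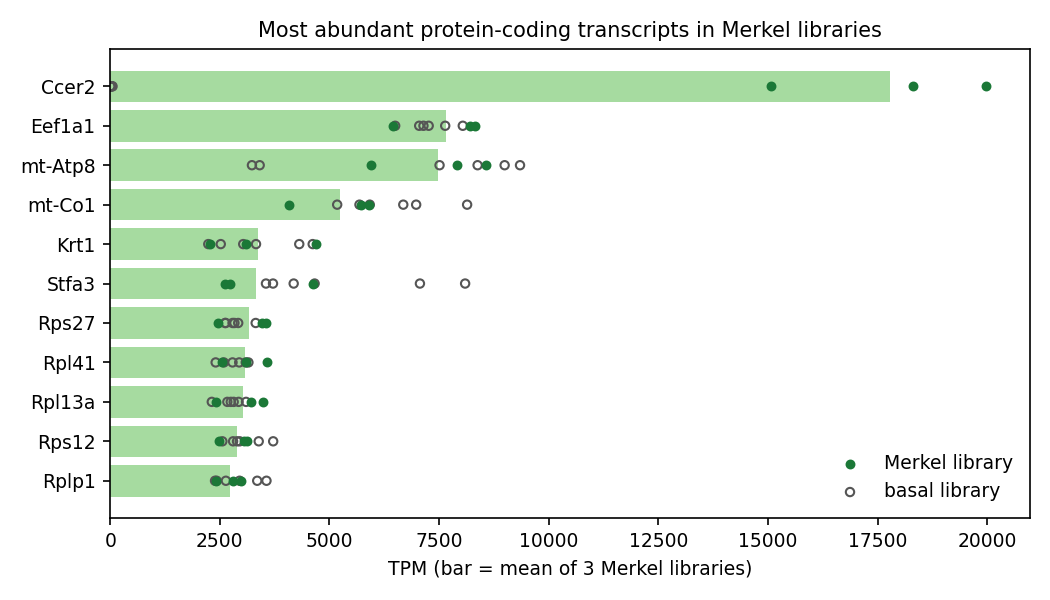
The 11 protein-coding genes with the highest mean in Merkel libraries, in TPM on a linear axis; bars are means of 3 Merkel libraries, filled points the Merkel libraries and open circles the 6 basal libraries. Ccer2 stands at 17787 TPM with its basal circles near 0, while for the other 10 genes the basal circles overlap the Merkel points.

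As a share of all protein-coding TPM, Ccer2 held 3.51% ± 0.154 (SD, n = 3), or about 1 in 28.5, 29.7 and 27.2 protein-coding transcripts in numbers 1, 2 and 3. The share varied less between libraries than the TPM did, with a coefficient of variation of 4.38% for the share, while the TPM had an SD of 2489 around 17787. Number 2 was the lowest on both. It was also the library in which protein-coding genes held least of the total, 44.8% against 52.2% in number 1 and 54.4% in number 3. On the total of all rows Ccer2 held 1.51% to 2.00%, so that leaving it out of the total would raise each other gene by at most 1.02-fold.

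Set against gene families, the mean of 17787 TPM was 0.170 of the summed TPM of 81 ribosomal protein genes and like-named paralogues (104628 TPM) and 0.822 of that of the 13 protein-coding genes of the mitochondrial genome (21648 TPM). It exceeded every list of Merkel cell genes. The 8 Merkel lineage transcription factors together reached 459 ± 62.3 TPM, 5 simple epithelial keratins 764 ± 172, 16 genes for dense-core vesicle contents and the cutting of prohormones 497 ± 82.6, and 15 peptide precursor genes 394 ± 34.6 (SD, n = 3). All 66 genes of the 6 Merkel lists summed to 2512 TPM, and Ccer2 alone stood 7.08-fold above that sum.

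Among genes that set Merkel cells apart, none came near it. In a fit over 13822 tested genes, limma called 12.1% different between the cell types (adjusted p under 0.05 and a 2-fold change or more), that is 6.79% of the tested genes as higher in Merkel cells and 5.27% as lower. Merkel and basal libraries did not overlap for 38% of genes. Ccer2 held 54.2% to 55.4% of the summed TPM of the 897 protein-coding genes called higher. It held 77.1% to 79.4% of that of the 138 that were 8-fold or more higher. After it came Krt8, a simple epithelial keratin, at 402 ± 63.6 TPM, or 44.3-fold less, and Krt13, a keratin of mucosal epithelia, at 209 ± 170. The carboxypeptidase gene Cpe, which trims peptide hormones, was at 200.3 ± 32.6 TPM and the peptide hormone gene Cck at 177 ± 27.5. These shares describe the comparison by which Ccer2 was chosen.

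In basal libraries Ccer2 was low but measurable, and the first libraries lay above the second. It was at 36.4, 27.2 and 53.2 TPM in the first basal libraries of numbers 1, 2 and 3. In the second it was at 9.86, 7.98 and 6.49 TPM. Every first library was above every second one, and all were far below the lowest Merkel library. The mean of both libraries of a number was 23.5 ± 6.14 TPM (SD, n = 3), and the Merkel library of the same number was 792-fold, 858-fold and 669-fold higher. Taken apart, the Merkel mean was 457-fold above the first and 2193-fold above the second libraries. In RNA from a sorted population, a few cells with much of a transcript cannot be told apart from many cells with little.

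**Figure D2:**
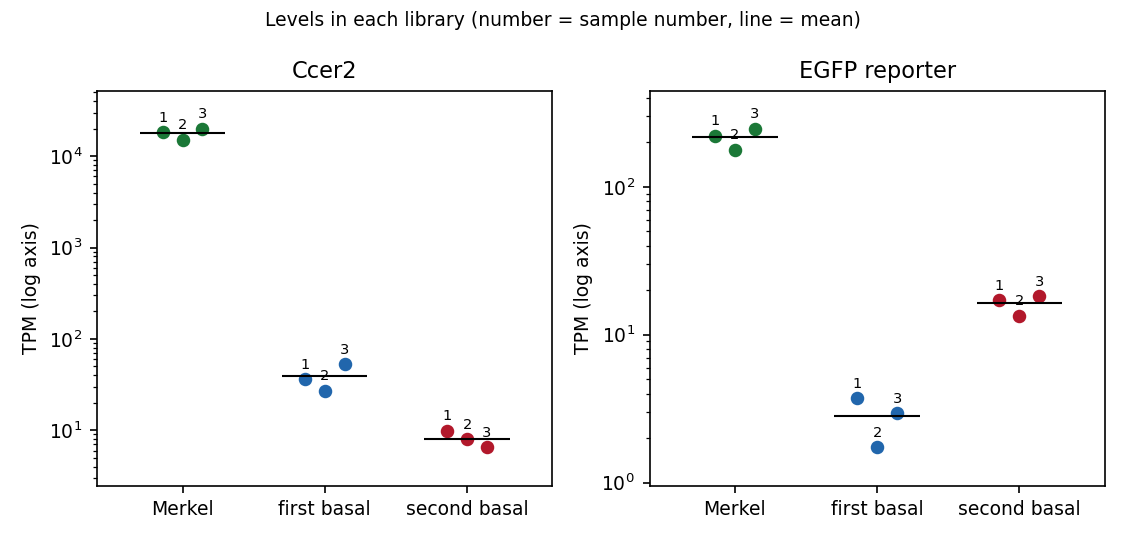
TPM on a log axis in each library for Ccer2 (left) and the EGFP reporter (right); points are libraries marked by sample number and lines are group means. Ccer2 is higher in first than in second basal libraries, and EGFP the other way round.

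The rank of Ccer2 moved with the kind of basal library. Among protein-coding genes it stood at 2330, 2982 and 1345 in first libraries and at 7006, 7846 and 8243 in second libraries. Genes at its level were Gart, an enzyme of purine synthesis, and Tomm70a, a mitochondrial import receptor, in first libraries (38.9 TPM each). In second libraries they were Csgalnact2 and Olfm1 (8.12 and 8.10 TPM). Gart and Tomm70a were at 33.2 and 36.4 TPM in Merkel cells.

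The difference between second and first basal libraries was not used to choose the gene and was tested over 13477 genes. Ccer2 was lower in the second libraries, with a log2 fold change of -2.10 ± 0.25 on the log2(TPM + 1) scale (SE, 3 against 3 libraries, limma adjusted p = 0.00463). The first library was the higher in all 3 numbers, by 3.69-fold, 3.41-fold and 8.20-fold. Of the genes tested, limma called 4.35% in either direction and 3.67% lower, and 10.1% had every second library below every first one (27.4% had no overlap in either direction). There were 223 genes with a lower log2 fold change than Ccer2. The call was lost without number 1 (-2.25, adjusted p = 0.0704) or number 3 (-1.72, adjusted p = 0.125), fits that left 2 libraries a side and called 4 and 2 genes in all.

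EGFP, the reporter transcript behind the sort, went the other way. It was at 222, 178 and 247 TPM in Merkel libraries, at 3.72, 1.73 and 2.96 TPM in first basal libraries and at 17.1, 13.4 and 18.3 TPM in second basal libraries. The second libraries were all above the first, with a log2 fold change of 2.21 ± 0.22 (limma adjusted p = 0.0034), where 0.675% of genes were called higher. This call too was lost without number 1 (2.34, adjusted p = 0.066) or number 3 (2.17, adjusted p = 0.134). The basal libraries with more Ccer2 were thus those with less EGFP.

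Markers of other cell types also differed between first and second basal libraries. A set of 6 protein-coding immune markers, among them the antigen presentation gene Cd74 and the macrophage receptor gene Csf1r, summed to 598 to 992 TPM in first and 39.3 to 239 TPM in second libraries. In Merkel libraries they summed to 42.0 to 130 TPM. Cd74 held most of the basal sums, at 626 TPM in first and 95.45 TPM in second libraries on average. It was not called (-3.19, limma adjusted p = 0.0559). The 7 melanocyte markers summed to 16.3 to 35.4 TPM in first and 109 to 158 TPM in second libraries, and to 153 to 217 TPM in Merkel libraries. In second libraries limma called all 7 melanocyte markers higher, and 3 of the 5 immune markers tested lower. Over all genes tested, 0.675% were called higher and 3.67% lower. Dermal fibroblast markers summed to 387 to 904 TPM in first and 262 to 360 TPM in second libraries, and their members went both ways. Of 4 tested, limma called the intermediate filament gene Vim lower (-2.27, adjusted p = 0.0103) and the collagen gene Col1a2 higher (1.47, adjusted p = 0.00377) in second libraries. Vim averaged 565 TPM in first and 115 TPM in second libraries and made up most of the first sum. Dcn, not called, went the other way, at 71.3 and 176 TPM. Without number 1 or number 3 limma called 0 markers of these 3 lists, and with the sample number as a block it called 5 immune and 3 fibroblast markers. With no filter on low values it called 5 melanocyte and 2 immune markers, and with a filter at 5 TPM 6 and 2. The 8 Merkel lineage factors summed to 0.71 to 2.05 TPM in first and 0.65 to 1.08 TPM in second libraries, which overlap. The part of these cells in the Ccer2 difference was not tested.

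The basal level can be set out beside that of other genes high in Merkel cells. Of the 66 genes on the 6 Merkel lists, 29 were at 10 TPM or more in Merkel cells and, by mean TPM, 8-fold or more above basal cells. That filter uses the Merkel to basal difference, as the choice of Ccer2 did, so the place of Ccer2 among them is not a result. First libraries held Ccer2 at 0.219% of its Merkel level and second libraries at 0.0456%. Krt8 was at 0.284% and 0.430%, and Sox2 at 0.153% and 0.173%. By library kind the 29 split: 5 had every first library above every second, like Ccer2, 3 had the reverse and 21 overlapped. Over all genes tested, 10.1% had every first library above every second and 17.3% the reverse. Most of the 29, and all of the 5, were too low in basal libraries to be among those tested. The 5 were Cck, Pou4f3, Lhx3, Hepacam2 and the granin-related Scg5. The 3 were the touch channel gene Piezo2, the keratin gene Krt19 and the vesicle GTPase gene Rab3b. Most of these genes were below 1 TPM in basal libraries, where values are least precise, and these sides carry no test.

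**Figure D3:**
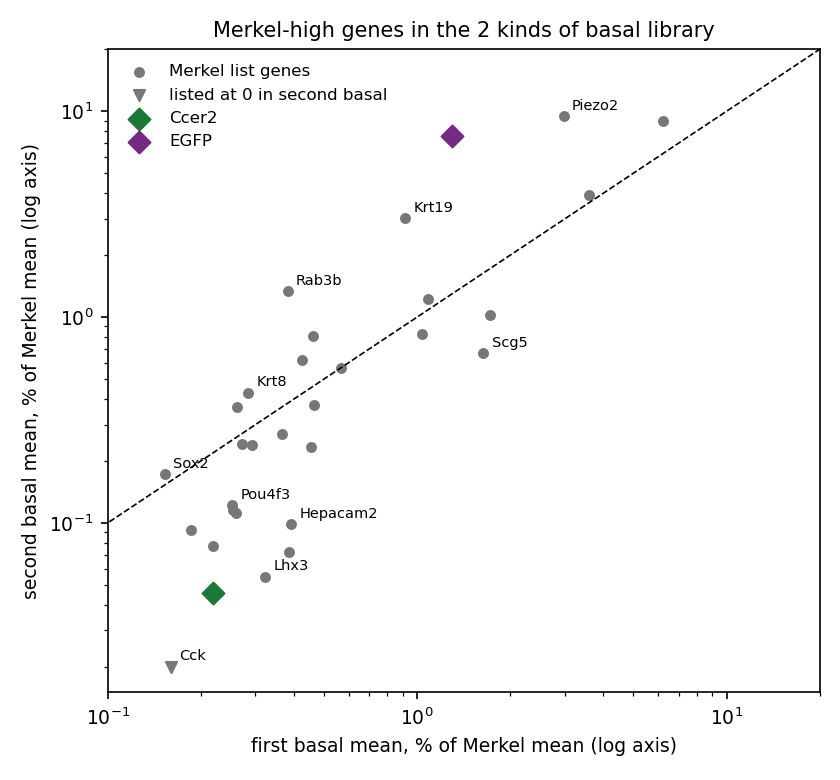
Mean of first (x) and second (y) basal libraries as a percentage of the Merkel mean, both on log axes, for 29 genes of the Merkel lists (grey), Ccer2 and EGFP (diamonds); the dashed line marks equality, and the triangle is Cck, listed at 0 in second libraries and drawn at the lower edge. Ccer2 lies below the line at 0.219% and 0.0456%, and EGFP above it.

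The genes most like Ccer2 across all 9 libraries were named by the correlation of log2(TPM + 1), among 6457 protein-coding genes at 10 TPM or more in Merkel cells. Pearson's r ran from 0.992 to 0.985 over the first 10. They were 0610040J01Rik, Tmem30a, a subunit of phospholipid flippases, Scg5, the flippase gene Atp8a2, Hepacam2, Cck, the transcription factor genes Pou4f3, Atoh1 and Lhx3, and Gng4, a G protein subunit. All 10 were above every basal library in every Merkel library, and 8 also had every first basal library above every second, features the correlation itself favours. Over all genes tested these shares were 11.7% and 10.1%, but of the 10 only Tmem30a was high enough to be tested between basal libraries. EGFP had r = 0.842. The libraries of a group share their cell type, so that r mostly measures the step between Merkel and basal libraries. Tmem30a had the smallest step, 58.0 TPM against 25.5 in first and 22.0 in second libraries, while Cck was at 177 TPM against 0.283 in first libraries and was listed at 0 in second ones.

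The neighbours of Ccer2 on the chromosome showed no such step. They were taken by position alone, the 10 nearest protein-coding genes on each side, from 28508836 to 28981864. Of the 20, 14 were expressed highly enough to be tested, and limma called 0, against 12.1% of all genes tested. An unadjusted limma p under 0.05 was seen for 4, all lower in Merkel cells, and for 6857 of all 13822 genes tested. Log2 fold changes ran from -0.97 to 0.18, with a median of -0.15, which was also the median over all genes tested. In 3 of the 14 every Merkel library was below every basal one, where 26.2% of all genes were. The upstream neighbour Sars2, a mitochondrial seryl-tRNA synthetase, was at 7.59 ± 1.17 TPM in Merkel and 8.50 ± 0.360 in basal cells (-0.15 ± 0.14). The deacetylase gene Sirt2 was at 17.9 ± 1.16 against 15.9 ± 0.632 TPM (0.16 ± 0.11), and the galectin gene Lgals7, the most abundant neighbour, at 1205 ± 118 against 1415 ± 274 TPM. Ccer2 was 14.8-fold above Lgals7 in Merkel cells.

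The neighbours with an adjusted p under 0.05 were Lgals4, Rinl and Actn4. Of all 13822 genes tested, 5765 had such a limma adjusted p. Lgals4, another galectin gene, of which some mouse strains carry a near-identical copy, was at 2.15 ± 0.697 against 5.10 ± 0.726 TPM (-0.97 ± 0.19, limma adjusted p = 0.00316). That is just short of the 2-fold needed for a call on the log2(TPM + 1) scale. Rinl was at 1.08 ± 0.365 against 2.62 ± 0.347 TPM (-0.66 ± 0.18, limma adjusted p = 0.0174). In TPM itself the Merkel means of Lgals4 and Rinl were 0.421 and 0.412 of the basal means. The added 1 TPM shrinks the change of low genes. With a pseudocount of 0.1 limma called Lgals4 but not Rinl. Against first basal libraries alone it called both. Actn4, an actin crosslinker, was at 73.7 ± 10.98 against 119.6 ± 3.13 TPM (-0.69 ± 0.13, limma adjusted p = 0.00309). Rinl also differed between basal libraries, with 4.04, 3.59 and 4.55 TPM in first and 0.41, 1.99 and 1.16 TPM in second ones. Like Ccer2, its first libraries were all above its second ones (-1.27 ± 0.27, limma adjusted p = 0.0317). That call was lost without number 1 (-0.99, adjusted p = 0.156) or number 3 (-1.23, adjusted p = 0.36).

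**Figure D4:**
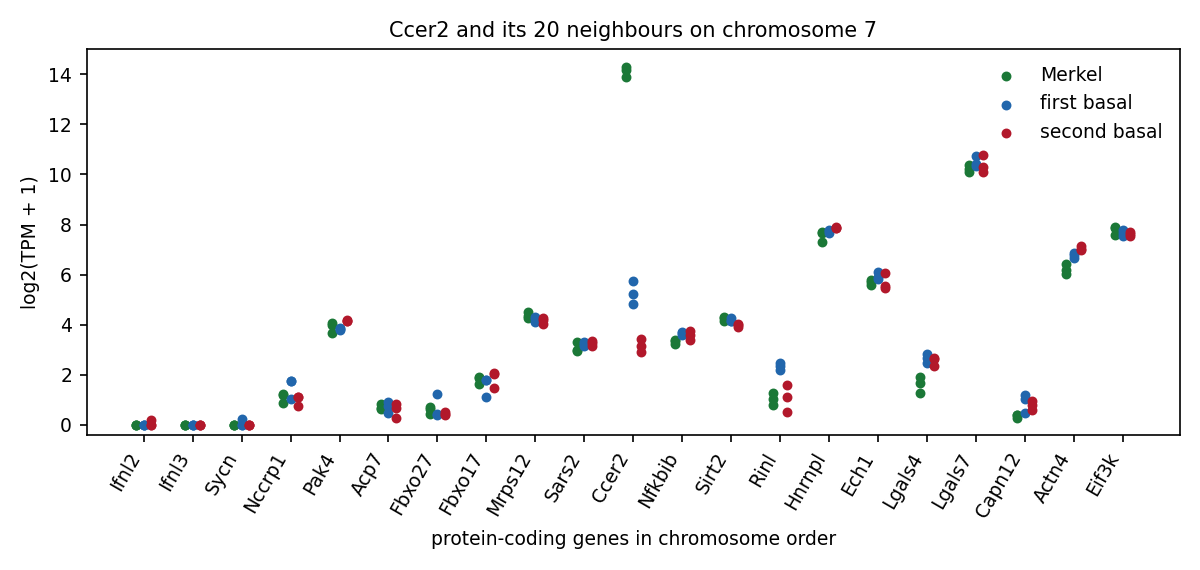
Log2(TPM + 1) in every library for Ccer2 and 20 protein-coding neighbours in chromosome order; green points are Merkel, blue first basal and red second basal libraries. Ccer2 is the one gene whose Merkel points stand apart above the basal points; Rinl has its first basal points above the rest.

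Ccer2 overlaps Nfkbib, an inhibitor of NF-kappa-B, tail to tail on the opposite strand. All 314 bases of its exon 5, from 28758655 to 28758968 and 29.8% of the transcript, lie opposite exonic sequence of Nfkbib. The kit keeps strand, but whether the quantification used it is not given in the sources used here. Nfkbib was at 9.16, 8.45 and 9.40 TPM in Merkel libraries, where Ccer2 was high, and at 9.51 to 12.4 TPM in basal libraries, where Ccer2 was low. Its log2 fold change was -0.30 ± 0.12 (limma adjusted p = 0.0838). Ccer1, the other gene of that name, was listed at 0 in all 9 libraries.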

How the data were processed

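The authors deposited TPM per gene in 1 table, with 49671 Ensembl identifiers and an added EGFP sequence. Per the submitters' processing notes, the tools were Trimmomatic, STAR and RSEM, and the genome mm10. The sources used here name neither the annotation nor the strand setting. GENCODE M21 (GRCm38, the same build) gave names, types and coordinates for 49412 identifiers without their version suffix. Exon length is the union of annotated exons.

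Values were tested as log2(TPM + 1), which understates the change of low genes, with limma 3.58.1 (variance trend, two-sided, Benjamini-Hochberg over all tested genes) in R 4.3.3. A gene was tested at 1 TPM or more in at least 3 of 6 values, and called where the adjusted p was below 0.05 and the log2 fold change at least 1 in either direction. For Merkel against basal cells, the first and second basal library of a number were averaged on the log scale. Basal means ± SD use the mean TPM of those 2 libraries.

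Same-numbered samples deviated together from their group means (r = 0.39, 0.36 and 0.20 for Merkel and basal, 0.47, 0.53 and 0.38 for first and second basal libraries), so the numbers were taken to pair them. The fits without a block are the main ones, and their p-values leave the pairing out. With a block, genes at a limma adjusted p under 0.05 went from 5765 to 7030 for Merkel against basal cells. Between second and first basal libraries they went from 1104 to 2335.

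Genes named are Ccer2, the 10 highest in Merkel cells, those next to it in level, position or pattern, and list members as examples; EGFP, Rinl and Lgals4 beyond position were picked with values in view. Members and lists were chosen with earlier results of these data known. Python 3.11.15, pandas 2.3.3 and matplotlib 3.10.9 were used.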

Additional observations from a re-analysis of the deposited data

Results flagged for a closer look

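The genes Ccer2, EGFP and Rinl had a Merkel difference that depended on which basal libraries were used, tested as second against first basal libraries over all genes with limma (3 against 3 libraries). Ccer2 was lower in second libraries by a log2 fold change of -2.10 (adjusted p = 0.00463, lower in 3 of 3 sample numbers). EGFP was higher by 2.21 (adjusted p = 0.0034, higher in 3 of 3). Rinl, 1 of the 20 neighbours, was lower by -1.27 (adjusted p = 0.0317, lower in 3 of 3). Each call was lost without number 1 or number 3, and that of Rinl also with a pseudocount of 0.1 (-1.91, adjusted p = 0.0635) or no filter on low values (adjusted p = 0.0915).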

How the results depend on the processing

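The rank of Ccer2 by Merkel mean was 1 among protein-coding genes with medians, median-ratio scaling, no mitochondrial genes or any Merkel library left out. It was 4 among all rows, below Rn7sk, Rn7s2 and Rn7s1, structural RNAs. It was 2 when TPM was multiplied by exon length as a stand-in for reads, below Eef1a1, whose exons sum to 2493 bases. Its share of protein-coding TPM (3.51%) became 1.78% of all rows, 1.07% by length-weighted values and 3.67% without mitochondrial genes, and 3.44% to 3.59% without 1 Merkel library. The log2 difference from basal cells (9.89) was 9.98 with a pseudocount of 0.1 and 10.08 with median-ratio scaling, and at least 9.80 without 1 Merkel library. The Ccer2 change between second and first basal libraries ranged from -2.32 to -1.72 without 1 sample number. It was called without number 2, with another pseudocount, filter or scaling, and with the sample number as a replicate block (-2.10, adjusted p = 0.00913; range over alternatives 0.00434 to 0.125). Genes called there were 586, with 311 at a filter of 5 TPM, 640 under the block and 2 to 804 without 1 number. For Merkel against basal cells, 1667 genes were called, 1719 under the block, 2448 with a pseudocount of 0.1, 935 at the 5 TPM filter and 1653 to 1924 without 1 replicate; the share called higher went from 56.3% to 71.2% with median-ratio scaling and to 48.8% with a pseudocount of 0.1, where more genes were lower (1254) than higher (1194). Of the neighbours 0 were called in that fit and under the block, 1 (Lgals4) with a pseudocount of 0.1, 2 (Rinl and Lgals4) against first basal libraries alone, and 0 to 1 without 1 replicate (Lgals4 without Merkel replicate 3 or basal replicate 2). Between second and first basal libraries the block changed no other call named in the text but those of immune and fibroblast markers. For Merkel against basal cells, calls of single list markers were not checked under the block. The causes were not tested. Depth is unknown, so the precision of basal values cannot be stated.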
